A study of Mus musculus with 4 samples.

Results

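Cultured mouse Th17 cells, the CD4+ helper T cells that make interleukin 17, held 7 genes at a very low level in wild-type (WT) cells and at a clearly measurable level in cells of mice lacking PRAK: the chemokine gene Cxcl3, the receptor genes Timd2 and Robo3, the sulfatase gene Sulf2, the anchoring protein gene Lad1, the adenylate kinase gene Ak1 and the zinc finger gene Zfp750. They are 7 of the 17921 genes of the deposited expression table, found by gene symbol, and were chosen for being low in WT and high in KO in these same libraries. Their difference between genotypes is therefore a description here, with no test.

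PRAK, the product of Mapkapk5, is a protein kinase that p38 regulates and activates. The KO libraries came from 2 PRAK KO mice and the WT libraries from 2 WT mice, with 1 library per mouse, called KO 1, KO 2, WT 1 and WT 2 after the mouse numbers in the labels. In both genotypes naive CD4+ T cells were enriched, polarised towards Th17 in vitro for 72 h and taken for total RNA as a whole culture, with no later sort named. The labels give neither the part of Mapkapk5 that was deleted, nor the strain, age or sex of the mice, nor whether the numbers pair a KO with a WT mouse. Since the libraries of a genotype were separate mice, p-values measure the spread between mice together with any difference between their cultures.

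The 7 genes are known mainly from work outside Th17 cells. CXCL3 is a secreted chemokine that draws neutrophils through the receptor CXCR2, and its gene lies in a cluster with Cxcl1 and Cxcl2, which are classic targets of the transcription factor NF-kappaB. TIM-2, the product of Timd2, is a rodent cell-surface protein of the T cell immunoglobulin and mucin (TIM) family that binds H-ferritin, and Semaphorin 4A is a further ligand reported for it in mice. ROBO3 belongs to the roundabout family of guidance receptors and steers commissural axons across the midline of the nervous system. SULF2 is a sulfatase that acts outside the cell and removes sulfate groups from heparan sulfate chains, which hold growth factors and chemokines. LAD1 (ladinin) is a protein of the basement membrane beneath epithelia, AK1 is the cytosolic adenylate kinase that moves phosphate between ATP, AMP and ADP, and ZFP750 is the mouse counterpart of the transcription factor ZNF750, which acts in terminal differentiation of the epidermis.

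The promoters of Cxcl3 and its cluster neighbours Cxcl1 and Cxcl2 are shown because all 3 hold a match to an NF-kappaB motif, and that of Lad1 because this gene had the largest ratio of KO to WT. Each line gives the 250 bases before the RefSeq transcript start on GRCm38.p6, 5′ to 3′ on the forward strand. Capitals mark matches to any of the 8 motifs searched.
Cxcl3, chr5:90785851-90786100: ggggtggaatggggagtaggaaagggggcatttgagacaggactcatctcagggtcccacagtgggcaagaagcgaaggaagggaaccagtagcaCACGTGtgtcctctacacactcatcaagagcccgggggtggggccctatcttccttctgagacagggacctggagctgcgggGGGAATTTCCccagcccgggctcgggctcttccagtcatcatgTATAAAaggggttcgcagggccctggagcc
Cxcl1, chr5:90890995-90891244: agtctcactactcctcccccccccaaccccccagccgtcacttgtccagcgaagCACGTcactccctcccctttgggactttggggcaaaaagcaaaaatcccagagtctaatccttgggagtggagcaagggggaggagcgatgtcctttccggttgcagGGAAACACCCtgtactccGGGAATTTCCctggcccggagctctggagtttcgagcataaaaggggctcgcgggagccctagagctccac
Cxcl2, chr5:90903649-90903898: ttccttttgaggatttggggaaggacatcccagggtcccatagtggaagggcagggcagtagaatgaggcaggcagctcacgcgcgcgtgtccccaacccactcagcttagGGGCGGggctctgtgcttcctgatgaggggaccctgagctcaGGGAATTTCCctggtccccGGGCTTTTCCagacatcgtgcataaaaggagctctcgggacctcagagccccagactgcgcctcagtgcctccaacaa
Lad1, chr1:135818348-135818597: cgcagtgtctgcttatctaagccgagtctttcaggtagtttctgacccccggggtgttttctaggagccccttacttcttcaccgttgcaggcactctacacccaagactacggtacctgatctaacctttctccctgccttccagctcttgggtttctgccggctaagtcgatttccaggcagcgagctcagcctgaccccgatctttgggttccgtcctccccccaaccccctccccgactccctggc

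The NF-kappaB motif was searched on both strands as GGG, any 2 bases and TTTCC. In the Cxcl3 promoter it lay at bases -73 to -64 from the RefSeq start. In that of Cxcl1 it lay at -89 to -80 and -71 to -62, and in that of Cxcl2 at -97 to -88 and -78 to -69. The bases just after the Cxcl3 start were not found unbroken in any Cxcl3 transcript of GENCODE, a second annotation. The Cxcl3 positions therefore hold for the RefSeq start only. The motif was found in 1.41% of all 32851 promoters of the table, and of the 6 genes with a promoter sequence only in Cxcl3. The Cxcl3 promoter also held a TATA box (TATAAA, in 12.37% of promoters) at -30 to -25 and an E-box (CACGTG, in 6.02%) at -155 to -150, and the E-box contains the hypoxia element core ACGTG (in 16.57%) on both strands. The Lad1 promoter held none of the 8 motifs and had 57.6% G and C with 11 CpG pairs, beside medians of 52.4% and 6.0 over all promoters.

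RefSeq promoters were at hand for 6 of the 7 genes, 11 sequences in all, with Zfp750 the exception. None of the 8 motifs was found in all 6 genes. A gene was counted if any of its sequences matched, while the percentages count single promoters. The hypoxia element core was found in Ak1, Sulf2 and Cxcl3 (3 of the 11 sequences). The GC box (GGGCGG, in 32.74% of promoters) was found in Robo3 and Sulf2 (2 of 11). The antioxidant element (TGACNNNGC, in 10.16%) was found in Ak1 (2 of 11). The TATA box letters were found in Sulf2 besides Cxcl3 (2 of 11), in Sulf2 at -244 to -239. The bases just after that Sulf2 start were not found unbroken in any Sulf2 transcript of GENCODE. The AP-1 motif (TGANTCA, in 6.75%) and a single repeat unit of the p53 element (in 7.13%) were found in 0 of the 11. The full p53 element, made of such units, was not searched. These matches describe letters in the windows and do not show binding.

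The 7 genes lie at 7 places on 5 chromosomes. On GRCm38.p6 they are Cxcl3 (gene ID 330122, chr5:90786101-90788093, forward strand), Timd2 (171284, chr11:46668960-46707107, reverse), Robo3 (19649, chr9:37416045-37433436, reverse), Sulf2 (72043, chr2:166073899-166155683, reverse), Lad1 (16763, chr1:135818598-135833341, forward), Ak1 (11636, chr2:32621758-32635058, forward) and Zfp750 (319530, chr11:121510976-121519342, reverse). Cxcl3 is on the chromosome of Mapkapk5, 30.7 Mb away. In the GENCODE M21 annotation Zfp750 lies within the span of Tbcd on the opposite strand and shares 0 exon bases with it, while Sulf2 and the oppositely transcribed Ncoa3 share 154 exon bases, 2.6% of the exons of Sulf2. Whether the libraries kept strand is not given in the sources used here, so reads in that stretch cannot be told apart. Of the 31-base words in their GENCODE transcripts, 5.46% were shared with other genes for Cxcl3 (4.56% with Cxcl2) and 4.84% for Timd2 (3.89% with Havcr1). The share was 2.15% for Sulf2 (2.12% with Ncoa3), 0.08% for Ak1 and 0.0% for Lad1, Robo3 and Zfp750. For Cxcl3 GENCODE has 3.5 kb of exon, longer than the 2.0 kb span given above. Its share in the transcript that was counted may therefore be higher.

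Total expected counts lay between 19418012 and 20125124 per library. Mapkapk5 itself stood at 20.0 and 21.6 CPM, the count scaled to library size, in KO 1 and KO 2, against 35.6 and 38.4 CPM in WT 1 and WT 2. It was lower in both KO libraries (log2 fold change -0.83, standard error 0.13, adjusted p = 0.0194, by the quasi-likelihood test of edgeR and Benjamini-Hochberg adjustment), although leaving out WT 1 gave an adjusted p of 0.0918 and leaving out WT 2 gave 0.169. Over all 12680 genes tested, 652 were called higher in KO (5.14%) and 1043 lower (8.23%), in total 13.4%, with an adjusted p under 0.05 as the call. The KO libraries differed from each other more than the WT libraries did, with a chi-square per gene of 59.1 for KO and 7.22 for WT, so no pair agreed within sampling noise. Marker genes of Th17 cells were found in all 4 libraries. Il17a, the gene of interleukin 17A, stood at 642.7 and 236.7 CPM in KO 1 and KO 2, against 474.2 and 417.5 CPM in WT 1 and WT 2. Cd4 stood at 515.6 and 938.9 CPM in KO, against 738.6 and 853.4 CPM in WT. These are only part of a list of T cell and Th17 markers whose sum, given below, was lowest in KO 2.

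Values in TPM, the authors’ unit scaled to gene length and to 1 sum per library, allow the 7 genes to be compared with each other. Mean levels in KO ran in the order Cxcl3 (49.2 TPM), Lad1 (44.9), Ak1 (35.3), Sulf2 (8.49), Timd2 (7.78), Zfp750 (6.24) and Robo3 (5.69), and the ranges of neighbours in this order overlapped except between Ak1 and Sulf2. In WT the order was Cxcl3 (1.42 TPM), Ak1 (0.855), Sulf2 (0.3), Zfp750 (0.26), Lad1 (0.205), Timd2 (0.16) and Robo3 (0.14), again with Ak1 and Sulf2 as the one neighbouring pair whose ranges did not meet. No value in KO was as low as any value of the same gene in WT. In bulk RNA a level cannot tell more cells with a transcript from more transcript per cell.

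**Figure D1:**
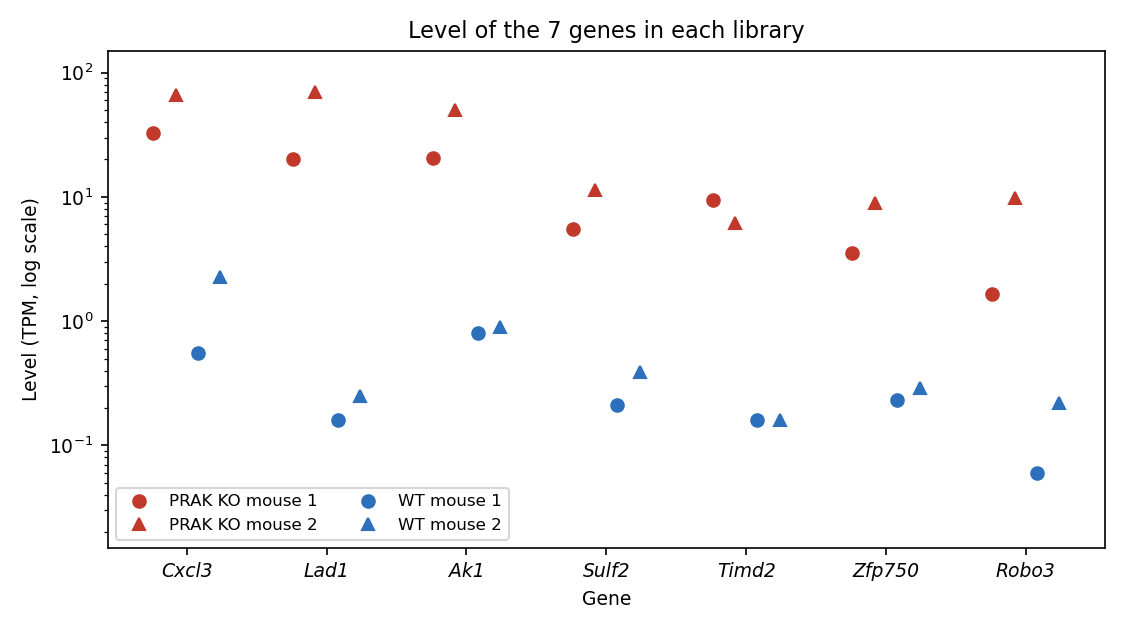
TPM (log scale) of each of the 7 genes in each library, with red points for the 2 PRAK KO libraries and blue points for the 2 WT libraries, genes ordered by their mean in KO. All KO points lie between 1.65 and 69.57 TPM and all WT points between 0.06 and 2.28 TPM.

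Cxcl3 stood at 32.89 TPM in KO 1 and 65.5 TPM in KO 2, against 0.55 TPM in WT 1 and 2.28 TPM in WT 2. It was high in both KO libraries, and WT 2 was the higher of the WT libraries. These levels rest on 336.45 and 697.55 expected counts in KO and on 5.84 and 24.29 in WT. The ratio of mean CPM was 32.6 and the ratio of summed counts 34.9, with an exact 95% interval of 24.3 to 52.0 that, like the intervals below, covers counting error only. Without WT 2 the ratio of means was 82.8 and without WT 1 it was 20.3, so this ratio depends on which WT library it is set against.

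Timd2 stood at 9.37 TPM in KO 1 and 6.19 TPM in KO 2, against 0.16 TPM in each WT library. It was the one gene of the 7 that was higher in KO 1 than in KO 2. The counts were 302.84 and 209.33 in KO, against 5 and 5 in WT. The ratio of mean CPM was 48.4 and that of counts 51.9 (28.0 to 108.9), and the ratio of means lay between 40.1 and 56.6 with any 1 library left out, the narrowest such range of the 7 genes.

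Robo3 stood at 1.65 TPM in KO 1 and 9.72 TPM in KO 2, against 0.06 TPM in WT 1 and 0.22 TPM in WT 2. KO 2 was far above KO 1, and both were above WT. The counts were 56 and 369 in KO, against 2 and 8 in WT, and the lower KO library was 6.48 times the higher WT library in CPM, the smallest such gap of the 7. The ratio of mean CPM was 40.4, and that of counts 43.1 (23.2 to 90.5). Without KO 2 the ratio of means was 10.4 and without WT 2 it was 102.6, the widest spread among the 7 relative to its size.

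Sulf2 stood at 5.51 TPM in KO 1 and 11.47 TPM in KO 2, against 0.21 TPM in WT 1 and 0.39 TPM in WT 2. The groups did not overlap, and mouse 2 was higher in both genotypes. The counts were 208 and 456 in KO, against 8 and 15 in WT. Mean CPM gave a ratio of 27.4 and counts one of 29.3 (19.3 to 46.5), with 16.9 for the means without KO 2 and 39.9 without WT 2.

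Lad1 stood at 20.32 TPM in KO 1 and 69.57 TPM in KO 2, against 0.16 TPM in WT 1 and 0.25 TPM in WT 2. It was the highest of the 7 genes in KO 2. By TPM it ranked 6387th and 2297th of the table in KO, against 13182nd and 12851st in WT. The counts were 626 and 2231 in KO, against 5 and 8 in WT. The ratio of mean CPM was 209.3 and that of counts 222.7 (130.0 to 418.8), the largest of the 7. Without KO 2 the ratio of means was 89.8, and without KO 1 it was 328.7.

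Ak1 stood at 20.43 TPM in KO 1 and 50.14 TPM in KO 2, against 0.81 TPM in WT 1 and 0.9 TPM in WT 2. The WT libraries were close to each other, and KO 2 was the higher KO library. The counts were 422 and 1080.03 in KO, against 21.76 and 19 in WT, the best counted of the 7 genes in WT 1. In mean CPM the ratio was 34.9 and in counts 37.1 (27.2 to 52.0), with 19.3 for the means without KO 2.

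Zfp750 stood at 3.56 TPM in KO 1 and 8.91 TPM in KO 2, against 0.23 TPM in WT 1 and 0.29 TPM in WT 2. It was again higher in KO 2 and close between the WT libraries. The counts were 119 and 309.98 in KO, against 8 and 10 in WT. In mean CPM the ratio was 22.7, the smallest of the 7, and in counts 24.2 (15.1 to 41.2), with 12.3 for the means without KO 2.

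In CPM with between-library scaling (TMM), the mean ± SD (n = 2 libraries each) was 70.6 ± 56.95 in KO against 0.337 ± 0.114 in WT for Lad1 and 37.0 ± 23.5 against 1.06 ± 0.0953 for Ak1. For Cxcl3 it was 25.5 ± 13.02 in KO against 0.781 ± 0.669 in WT, for Sulf2 16.4 ± 8.9 against 0.597 ± 0.264, for Timd2 12.5 ± 3.02 against 0.259 ± 0.00353, for Zfp750 10.6 ± 6.82 against 0.466 ± 0.0795 and for Robo3 10.5 ± 11.05 against 0.26 ± 0.223. The SD in KO was thus large beside the mean for all of them but Timd2, and for Robo3 it exceeded the mean.

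**Figure D2:**
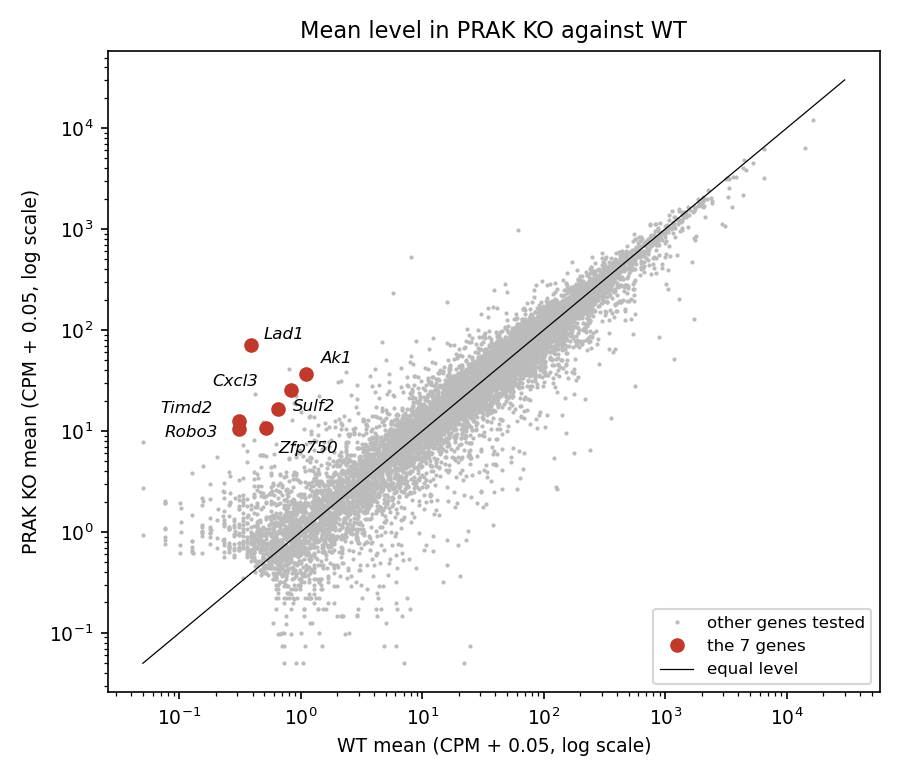
Mean CPM in PRAK KO (y) against mean CPM in WT (x), both on log scales after adding 0.05, for the genes tested, with the 7 genes in red and a line of equal level. The 7 genes lie at the upper left, with WT means of at most 1.06 CPM and KO means of at least 10.5 CPM.

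Few genes share this position. Of the 6320 genes of the table with a mean of at most 1.06 CPM in WT, the highest WT mean among the 7, 17 had a mean of at least 10.5 CPM in KO (0.269%), and 10 of these were other genes. Among them were Xcl1, Ccl6, Clec4n, Clec7a, Mpeg1 and Il9, of which Clec4n, Clec7a and Mpeg1 are best known from macrophages and dendritic cells. Il9 was not called. In the reverse direction, 12 of 6256 genes (0.192%) were as low in KO and as high in WT. The log2 fold change of the 7 genes ran from 4.49 for Zfp750 to 7.69 for Lad1, and among called genes with a name, a mean level of 5 CPM or more and no overlap between genotypes they held 7 of the 10 highest places. Just inside this range stood Ccl6 (4.69) and Zfp750 (4.49), and just outside it Clec7a (4.41), Serpine2 (4.06) and Lyz2 (4.05), given with no test since the genes were chosen on these values.

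The difference between the KO libraries was not what chose the genes, although the same values entered the choice. In CPM, KO 2 was 6.77 times KO 1 for Robo3, 3.66 for Lad1, 2.67 for Zfp750, 2.63 for Ak1, 2.25 for Sulf2, 2.13 for Cxcl3 and 0.708 for Timd2. On the log2(CPM + 0.5) scale the median log2 ratio of KO 2 to KO 1 was 1.35 over the 7 genes, 0.06 over the 652 genes called higher and 0.0 over all 12680 genes tested. More than a 2-fold difference between the KO libraries was found in 6 of the 7 genes, in 55 of the 652 genes called higher (8.4%) and in 618 of all genes tested (4.9%). Other genes among the highest 13 by fold change passed 2-fold as well. In KO 1 and KO 2 these were Clec4n (7.35 and 17.2 CPM), Serpine2 (41.5 and 111.5) and Lyz2 (12.7 and 64.2). Xcl1, Ccl6 and Clec7a did not. A call favours genes that vary little within a genotype, which can lower the share among genes called higher. The 2 KO mice are thus far apart for 6 of the 7 genes, and 2 mice give no estimate of how often that happens.

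**Figure D3:**
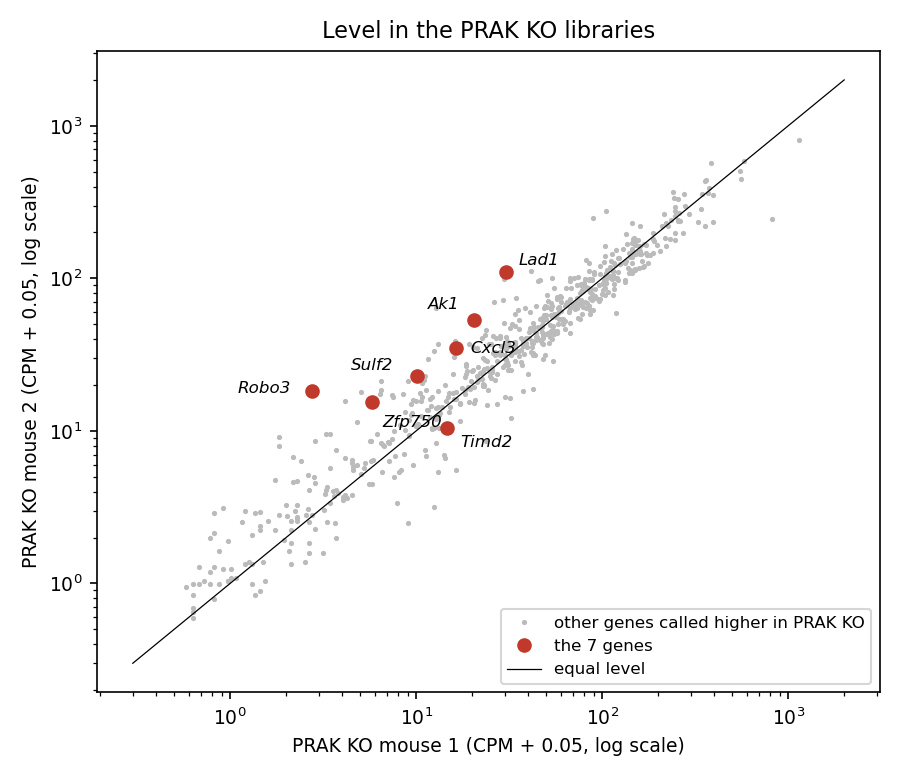
CPM in KO 2 (y) against KO 1 (x), both on log scales after adding 0.05, for the genes called higher in PRAK KO, with the 7 genes in red and a line of equal level. Lad1, Robo3, Ak1, Sulf2, Zfp750 and Cxcl3 lie above the line, at 2.13 to 6.77 times the level of KO 1, and Timd2 lies below it.

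Likeness was measured as the Euclidean distance between log2(CPM + 0.5) values centred over the 4 libraries, and the 2 nearest tested genes were taken for each gene. The nearest were Serpine2 (distance 0.31) and Clec4n (0.35) for Sulf2, Clec4n (0.31) and Serpine2 (0.39) for Zfp750, Serpine2 (0.71) and Sulf2 (0.75) for Ak1, and the unnamed gene Gm46156 (0.53) and Sulf2 (0.66) for Cxcl3. For Robo3 they were Lyz2 (0.24) and Clec4e (0.78), both known from myeloid cells. For Lad1 they were Xcl1 (1.44) and Gm46156 (1.61), so no gene came close to it. For Timd2 they were Rpl29 (0.14) and Ccl6 (0.47). Rpl29, a ribosomal protein gene with near-identical copies whose reads may be divided uncertainly, stood at 1139.41 and 802.81 CPM in KO, against 59.05 and 63.33 CPM in WT. Among the 7 genes themselves Sulf2 and Zfp750 were the closest pair (0.56) and Lad1 and Robo3 the farthest (2.8). With 4 libraries, 2 of each genotype, these distances describe the libraries only.

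Marker lists of other cells moved with the 7 genes in part, and their part in these values was not tested. Of 17 tested myeloid markers, 10 were called higher and 0 lower, with 4 called higher without WT 1 and 17 without KO 1, and the median log2 fold change was 2.49, beside 0.02 over all genes. Over all genes tested 5.14% were called higher and 8.23% lower. Some of these markers, such as Adgre1, Cebpa and Clec4n, passed the filter on low counts through their KO counts. They could hardly be called lower, and they can raise the median. Lyz2 stood at 12.7 and 64.2 CPM in KO 1 and KO 2, against 1.54 and 3.08 CPM in WT 1 and WT 2. Ctss stood at 56.0 and 97.9 CPM in KO, against 41.0 and 46.0 CPM in WT. Cd68 stood at 21.2 and 54.4 CPM in KO, against 10.4 and 16.6 CPM in WT. The summed level of the 19 myeloid markers in the table was 169.3 and 357.5 CPM in KO 1 and KO 2, against 71.6 and 103.4 CPM in WT 1 and WT 2. The sum was thus 3.01 times as high in KO as in WT and 2.11 times as high in KO 2 as in KO 1, with Ctss as its largest part in every library. Single myeloid markers ranged widely, with log2 fold changes of -0.13 for Flt3, 3.68 for Csf1r, 4.05 for Lyz2 and 4.78 for Clec4n, the last within the range of the 7 genes. The neutrophil genes S100a8 and S100a9 reached 2.24 and 3.73 CPM in KO 2 and did not pass the filter on low counts, and none of the 19 was at 0 in all 4 libraries.

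Markers of epithelia, the usual site of LAD1 and of the human counterpart of ZFP750, were mixed. The 6 tested had a median log2 fold change of 1.18, and 4 of them were higher in both KO libraries than in either WT library. The sum over the list was 2.73 times as high in KO as in WT. Krt8 was at 0 in all 4 libraries, Krt14 and Krt19 reached at most 0.145 CPM, and of 6 tested markers Dsp was called higher and Krt18 lower. Their sum was 68.7 and 32.4 CPM in KO 1 and KO 2, against 17.0 and 20.0 CPM in WT 1 and WT 2, mostly from Sfn, with 61.1 and 20.1 CPM in KO, against at most 11.9 CPM in WT. Sfn was thus higher in KO 1 than in KO 2, while Epcam, at 2.08 and 7.2 CPM in KO 1 and KO 2, against 3.28 and 3.34 CPM in WT 1 and WT 2, and Cldn4, at 0.822 and 1.74 CPM in KO, against 0.461 and 0.209 CPM in WT, were higher in KO 2. The adjusted p of Dsp was 0.0364 by edgeR, and 0.0505 without WT 1 and 0.191 without WT 2, and that of Krt18 was 0.0302, and 0.16 without WT 2.

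Neuronal markers, set beside Robo3, summed to 2.95 and 2.14 CPM in KO 1 and KO 2, against 1.85 and 2.51 CPM in WT 1 and WT 2, with Nefl at 0 in all 4 libraries and 0 called. CD8 T and NK markers summed to 414.0 and 334.8 CPM in KO 1 and KO 2, against 81.2 and 189.3 CPM in WT 1 and WT 2, with Nkg7 called higher of 8 tested (adjusted p = 0.0402 by edgeR, and 0.197 without WT 1, 0.11 without WT 2 and 0.106 without KO 2). Cd8a was the largest part of that sum in both KO libraries, at 185.0 and 103.7 CPM, against 11.8 and 49.1 CPM in WT. Cd8b1 stood at 97.5 and 77.0 CPM in KO, against 19.1 and 45.3 CPM in WT. Neither was called (adjusted p = 0.083 and 0.0717, edgeR). Both were higher in KO 1 than in KO 2, unlike Nkg7, at 45.0 and 96.6 CPM. B cell markers summed to 128.9 and 109.8 CPM in KO, against 43.0 and 97.5 CPM in WT, with Ms4a1 called higher of 7 tested. Mast cell and basophil markers summed to 22.4 and 46.5 CPM in KO, against 51.5 and 59.2 CPM in WT, with 0 of 3 called. That sum was almost all Kit, at 20.1 and 37.9 CPM in KO, against 50.9 and 58.1 CPM in WT, while Mcpt8 stood at 0.435 and 3.23 CPM in KO, against 0 and 0.157 CPM in WT, and Gata2 at 0.726 and 2.53 CPM in KO, against 0.256 and 0.261 CPM in WT. The median log2 fold change of the 3 tested was 0.71. Erythroid markers summed to 2.08 and 4.37 CPM in KO, against 14.8 and 17.0 CPM in WT, with Epor called lower of 5 tested. T cell and Th17 markers summed to 3922.3 and 2747.0 CPM in KO, against 4409.2 and 4247.5 CPM in WT, with the chemokine receptor gene Ccr6 called higher and the interleukin 23 receptor gene Il23r lower of 9 tested (adjusted p of Il23r 0.039 by edgeR, and 0.0763 without WT 1 and 0.0721 without WT 2). These small counts moved with the libraries used: 5 T cell and Th17 markers were called lower without KO 2 and 4 without KO 1, 4 epithelial markers higher without KO 1, 4 B cell markers higher without WT 2, 3 CD8 T and NK markers higher without KO 2, 0 without WT 1, and 3 mast cell markers higher without KO 1. By DESeq2 the 0 called of the mast cell list became 1 lower, and 2 of its 3 had an unadjusted p under 0.05 by edgeR, while the 1 neuronal marker tested, Tubb3, had none by either tool.

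The position of the genes was not used in choosing them, so the genes beside them could be tested. Of these, Havcr1, Cxcl2 and Pf4 were very low in WT and passed the filter on low counts through their KO counts. They could hardly be called lower, so the counts below lean towards rises. Of the 69 tabled genes nearest to the 7, taken as 5 on either side with 9 for Zfp750, 42 were tested, and 7 were called higher and 2 lower in KO, 21.4% of those tested beside 13.4% of all genes. The median log2 fold change was 0.08, beside 0.02 over all genes. The number called higher was 2 or 3 with WT 1 or WT 2 left out and 13 or 15 with KO 1 or KO 2 left out, and the number lower was 1, 1, 7 and 11 in the same order. At each of the 7 places most of the tested neighbours were not called.

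**Figure D4:**
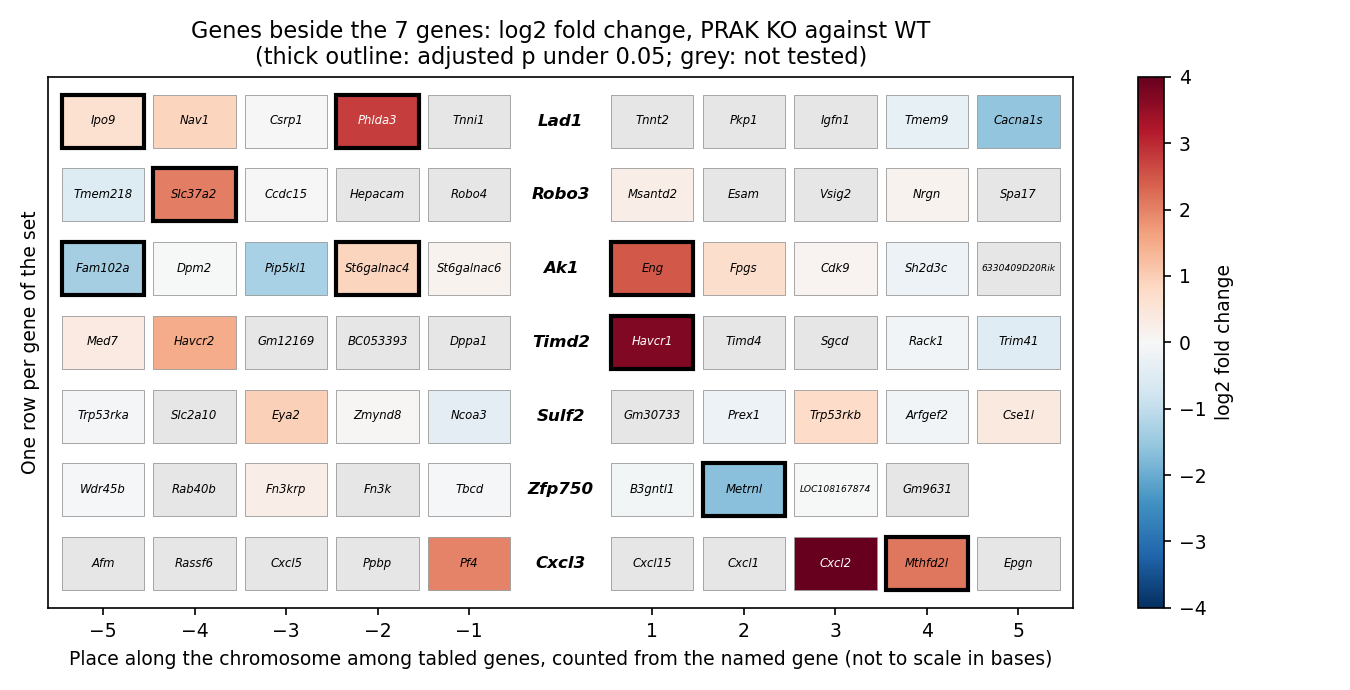
Genes beside each of the 7 genes, 1 row per gene, placed by their order along the chromosome, coloured by log2 fold change of PRAK KO against WT (red higher in KO, blue lower) and outlined where called. Of the 42 genes tested, 9 are outlined, and Sulf2 has no outlined neighbour.

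The largest log2 fold change among the called neighbours was that of Havcr1, the gene of TIM-1 and a relative of Timd2, which lies 32.7 kb from it. Havcr1 stood at 2.23 and 2.63 CPM in KO 1 and KO 2, against 0.103 and 0.261 CPM in WT 1 and WT 2. It was low in both genotypes and higher in KO (log2 fold change 3.70, standard error 0.53, adjusted p = 0.0145, edgeR quasi-likelihood test). The adjusted p was 0.0524 without WT 1, and the log2 fold change was 4.48 without WT 2. Havcr1 shares 3.89% of the 31-base words of Timd2, and the part of Timd2 reads in its counts was not tested. Since Havcr1 passed the filter through its KO counts, it could hardly be called lower. Dppa1, on the other side of Timd2, did not pass the filter.

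Eng, the gene next to Ak1 at 11.5 kb, encodes endoglin, a co-receptor for TGF-beta family ligands. It stood at 34.1 and 58.4 CPM in KO 1 and KO 2, against 6.97 and 9.72 CPM in WT 1 and WT 2, and rose (log2 fold change 2.47, standard error 0.32, adjusted p = 0.0113, edgeR). On the other side St6galnac6, at 0.9 kb from Ak1, was not called (0.15, adjusted p = 0.548 by edgeR). Further out St6galnac4, a sialyltransferase gene, stood at 85.4 and 66.0 CPM in KO, against 43.5 and 38.4 CPM in WT (0.89, adjusted p = 0.0281, edgeR). Leaving out WT 1 gave an adjusted p of 0.0584 and leaving out WT 2 gave 0.14. Fam102a fell, at 154.1 and 248.1 CPM in KO, against 493.2 and 549.4 CPM in WT (-1.37, adjusted p = 0.0254, edgeR). Genes on the 2 sides of Ak1 thus changed in both directions.

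Phlda3, a p53 target gene 49.5 kb from Lad1, stood at 34.5 and 74.7 CPM in KO 1 and KO 2, against 8.25 and 7.63 CPM in WT 1 and WT 2. It rose in KO (log2 fold change 2.78, standard error 0.39, adjusted p = 0.014, edgeR), with an adjusted p of 0.0542 without WT 1 and 0.0672 without WT 2, and a log2 fold change of 2.11 without KO 2. Of the 23 p53 target genes in a list that holds it, 12 were called higher and 0 lower, beside 5.14% higher and 8.23% lower over all genes, with 9 higher without WT 1 and 21 without KO 1. Ipo9, an importin gene, rose slightly (0.63, adjusted p = 0.0401, edgeR, and 0.162 without WT 1 and 0.395 without WT 2). The troponin genes Tnni1 and Tnnt2 on either side of Lad1 did not pass the filter, and Tnni1 stood at 0.484 and 2.09 CPM in KO, against 0.103 and 0.314 CPM in WT.

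Beside Robo3, its relative Robo4 lay 2.0 kb away and reached at most 0.0497 CPM, with no read in either WT library, and Msantd2 on the other side was not called (0.25, adjusted p = 0.244, edgeR). Slc37a2, a sugar phosphate transporter gene, rose in KO, at 11.1 and 23.0 CPM in KO 1 and KO 2, against 4.41 and 3.81 CPM in WT 1 and WT 2 (2.05, standard error 0.39, adjusted p = 0.0291, edgeR, and a log2 fold change of 1.42 without KO 2). Beside Zfp750, the enclosing gene Tbcd, a tubulin folding cofactor, stood at 81.1 and 65.2 CPM in KO, against 81.6 and 69.9 CPM in WT (-0.05, standard error 0.16, adjusted p = 0.858, edgeR). The sign of that value turned with the scaling and with the library left out, so no direction is given. B3gntl1 was not called (-0.12, adjusted p = 0.785, edgeR), and Metrnl, which encodes a secreted meteorin-like factor, fell (-1.68, adjusted p = 0.0289, edgeR, and 0.0663 without WT 1 and 0.117 without WT 2).

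Beside Sulf2, Ncoa3, a coactivator of nuclear receptors, stood at 230.4 and 240.0 CPM in KO 1 and KO 2, against 324.3 and 309.0 CPM in WT 1 and WT 2, and was not called (-0.43, standard error 0.12, adjusted p = 0.07, edgeR). The part of its shared exon bases in the counts of Sulf2 was not tested. Gm30733 on the other side did not pass the filter. Beside Cxcl3, the platelet chemokine gene Pf4 was not called (1.99, adjusted p = 0.07, edgeR), Cxcl15 did not pass the filter, and Mthfd2l, a gene of mitochondrial folate metabolism, rose (2.14, adjusted p = 0.0281, edgeR, and 0.116 without WT 1 and 0.119 without WT 2).

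The wider families and partners of the 7 genes gave 79 tabled genes, of which 54 were tested. Of these 5 were called higher and 9 lower, 25.9% beside 13.4% of all genes, and the median of their log2 fold changes was -0.05. The number higher was 2 or 3 with WT 1 or WT 2 left out and 14 or 13 with KO 1 or KO 2 left out, and the number lower was 6, 6, 16 and 18 in the same order. The relatives as a group thus did not share the direction of the 7 genes, but the lists within it differed. The median was 3.09 for the 5 CXC chemokine ligands tested and 2.6 for the 2 TIM genes tested. It was -0.08 for 6 adenylate kinase genes, -0.1 for 21 heparan sulfate genes and -0.5 for 7 basement membrane genes.

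Among CXC chemokine ligands other than Cxcl3, 5 of 12 in the table passed the filter. Cxcl2, Cxcl9, Cxcl10 and Pf4 did so through their KO counts, so they could hardly be called lower. Of the 5, 3 rose and 0 fell by edgeR (4 rose by DESeq2). Without KO 1 the count was 5, and without WT 1 or WT 2 it was 2. Cxcl10, an interferon-induced ligand of CXCR3, stood at 7.84 and 3.33 CPM in KO 1 and KO 2, against 0.256 and 0.679 CPM in WT 1 and WT 2 (log2 fold change 3.56, standard error 0.65, adjusted p = 0.027, edgeR). Its log2 fold change was 2.82 without KO 1 and 4.41 without WT 2. Cxcl9, a further ligand of that receptor, stood at 2.03 and 1.59 CPM in KO, against 0.205 and 0.209 CPM in WT (3.09, adjusted p = 0.0157, edgeR, and 0.0973 without WT 1 and 0.0994 without WT 2). Cxcl16, whose product is made at the cell surface, stood at 7.4 and 8.74 CPM in KO, against 1.59 and 1.88 CPM in WT (2.21, standard error 0.27, adjusted p = 0.0101, edgeR).

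The closest relatives of Cxcl3, whose promoters are printed above, stayed far below it. Cxcl2 shares 4.56% of the 31-base words of Cxcl3, and the part of Cxcl3 reads in its counts was not tested. Cxcl2 stood at 1.02 and 4.92 CPM in KO 1 and KO 2, against 0.0513 and 0.314 CPM in WT 1 and WT 2, and was not called (3.98, standard error 1.07, adjusted p = 0.0668, edgeR), with a log2 fold change between 2.44 without KO 2 and 5.69 without WT 2. Cxcl1 stood at 0.194 and 0.248 CPM in KO and at 0 in both WT libraries, and Cxcl5 at 0.29 and 0.149 CPM in KO and at 0 in both WT libraries, too low to be tested. On the receptor side Cxcr1 fell, at 0.484 and 0.348 CPM in KO, against 3.95 and 3.92 CPM in WT (-3.22, standard error 0.38, adjusted p = 0.00889, edgeR). Cxcr2, the receptor of CXCL3, stood at 6.43 and 5.91 CPM in KO, against 8.92 and 11.5 CPM in WT and was not called (-0.73, standard error 0.23, adjusted p = 0.0953, edgeR).

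**Figure D5:**
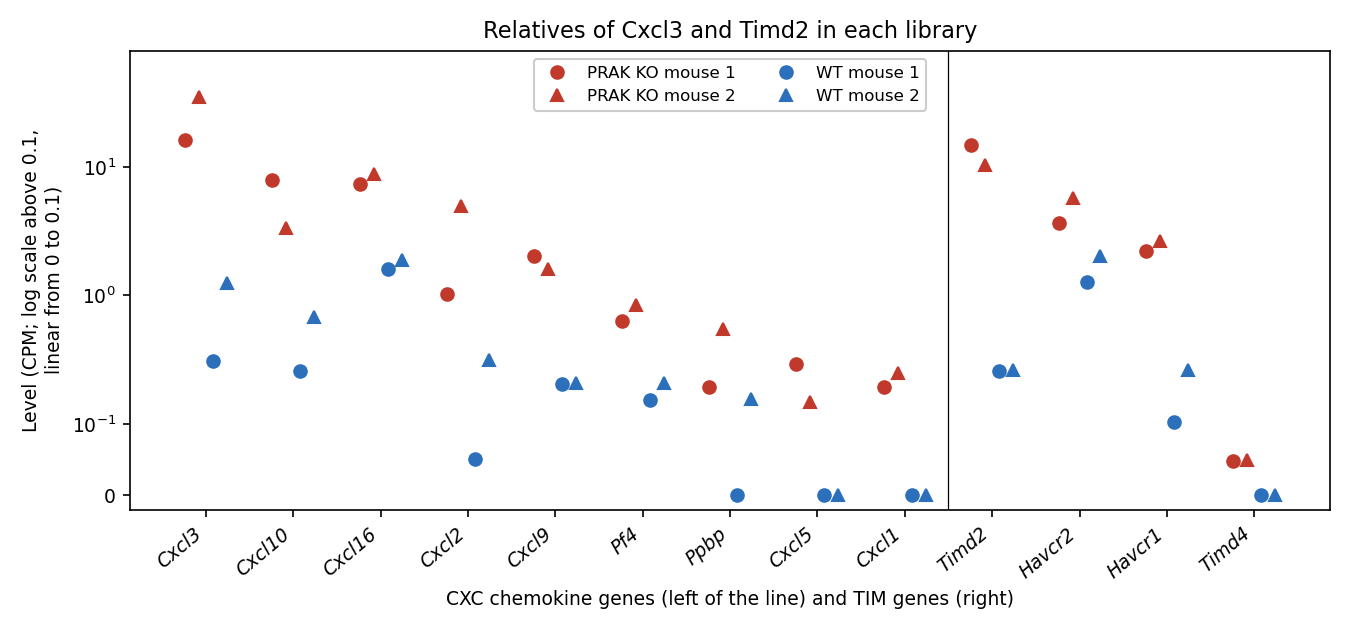
CPM of CXC chemokine genes (left of the line) and of TIM family genes (right) in each library, on a scale that is logarithmic above 0.1 and linear below, with red points for the 2 PRAK KO libraries and blue points for the 2 WT libraries. Cxcl3 is the highest of the chemokine genes shown in KO, at 16.3 and 34.7 CPM, and Timd2 the highest of the TIM genes, at 14.7 and 10.4 CPM.

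In the TIM family, Havcr2, which encodes the inhibitory receptor TIM-3, stood at 3.63 and 5.71 CPM in KO 1 and KO 2, against 1.28 and 2.04 CPM in WT 1 and WT 2, and was not called (1.49, standard error 0.40, adjusted p = 0.0677, edgeR). Timd4 had at most 0.0497 CPM. The ligands of TIM-2 were not called by edgeR or DESeq2, and 0 of these 2 genes had an unadjusted p under 0.05 by edgeR. With edgeR 1 of them was called higher without KO 1 and 1 lower without KO 2. The H-ferritin gene Fth1 stood at 784.2 and 946.9 CPM in KO, against 736.0 and 780.2 CPM in WT (0.19, adjusted p = 0.459, edgeR), and Sema4a at 32.4 and 49.4 CPM in KO, against 42.5 and 46.7 CPM in WT (-0.12, adjusted p = 0.734, edgeR).

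Robo3 was the one roundabout receptor gene above the filter. Robo1, Robo2 and Robo4 reached at most 0.298 CPM in any library and were not tested. Of 9 tabled genes of SLIT and netrin ligands, their receptor Dcc and the SLIT-ROBO GTPase-activating proteins, 4 were tested and 0 were called by edgeR or DESeq2 (2 had an unadjusted p under 0.05 by edgeR). With edgeR 1 was called higher when KO 1 was left out and 1 lower when KO 2 was. Srgap3 stood at 75.4 and 109.1 CPM in KO 1 and KO 2, against 61.9 and 65.2 CPM in WT 1 and WT 2 (0.54, adjusted p = 0.127, edgeR), while Slit2 and Slit3 reached at most 0.0993 CPM. Nell1 and Nell2 were not analysed here.

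Of 6 other adenylate kinase genes tested, 0 were called higher by edgeR or DESeq2 (1 by edgeR without KO 2) and 2 were called lower. Ak4, a mitochondrial isoform induced by low oxygen, fell, at 29.7 and 25.9 CPM in KO 1 and KO 2, against 76.9 and 77.7 CPM in WT 1 and WT 2 (-1.47, standard error 0.13, adjusted p = 0.00423, edgeR). Ak5 fell at a low level (-3.36, adjusted p = 0.0213, edgeR, and 0.052 without WT 1 and 0.155 without WT 2). Ak3, the kinase of the mitochondrial matrix, stood at 42.6 and 40.2 CPM in KO, against 43.2 and 44.8 CPM in WT (-0.09, adjusted p = 0.639, edgeR, and 0.01 on the log2 scale with scaling by library size alone).

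Sulf1, the only other extracellular sulfatase gene of this kind, had at most 0.0513 CPM. Among 21 tested genes that build heparan sulfate, carry it or cut it, 1 rose and 5 fell, beside 5.14% higher and 8.23% lower over all genes, and the median of their log2 fold changes was -0.10. The count of falls was 3 without WT 1 or WT 2 and 7 without KO 1 or KO 2, and that of rises was 0 and 4 in the same order. Scaling by library size alone gave 3 rises and 4 falls. The core protein genes Sdc3 and Sdc4 fell, with Sdc3 at 38.7 and 37.6 CPM in KO 1 and KO 2, against 98.1 and 107.4 CPM in WT 1 and WT 2 (-1.43, adjusted p = 0.00415, edgeR) and Sdc4 at a log2 fold change of -1.24 (adjusted p = 0.0121, edgeR). Hpse, the heparanase gene, stood at 2.81 and 5.02 CPM in KO, against 14.2 and 18.2 CPM in WT (-2.05, standard error 0.33, adjusted p = 0.0197, edgeR). These 3 genes were thus lower in both KO libraries, where Sulf2 was higher.

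The genes of heparan sulfate synthesis that were called held less firmly. Ext1, a chain polymerase gene, rose, at 67.4 and 73.3 CPM in KO 1 and KO 2, against 42.4 and 36.9 CPM in WT 1 and WT 2 (0.83, standard error 0.13, adjusted p = 0.0185, edgeR, and 0.0614 without WT 1 and 0.173 without WT 2). The sulfotransferase genes Hs6st1 (-0.60, adjusted p = 0.0329, edgeR) and Hs3st3b1 (-0.73, adjusted p = 0.0496, edgeR) fell. Without WT 1 and without WT 2 their adjusted p was 0.177 and 0.339 for Hs6st1 and 0.275 and 0.513 for Hs3st3b1, and that of Hs3st3b1 was 0.0657 with scaling by library size alone.

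With all 4 libraries, partners of LAD1 and ZFP750 in epithelia were not called higher. Of 7 tested genes of basement membrane anchorage, 0 were called by edgeR, where 5 had an unadjusted p under 0.05, and 2 were called lower by DESeq2. With either KO library left out edgeR called 1 of them higher, beside 2 lower when it was KO 1 and 3 when it was KO 2. Col17a1, which encodes the collagen of the same anchoring structure, had at most 0.105 CPM. Lamb3 stood at 5.27 and 10.1 CPM in KO 1 and KO 2, against 3.84 and 3.76 CPM in WT 1 and WT 2 (1.02, adjusted p = 0.128, edgeR). Of 5 epidermal transcription factor genes tested beside Zfp750, 1 was called lower (2 without KO 1 or KO 2) and 0 higher (1 without KO 2). Grhl2 fell, at 0.0968 and 0.0993 CPM in KO, against 1.85 and 2.46 CPM in WT (-4.37, standard error 0.51, adjusted p = 0.00895, edgeR). Klf4 was not called (-0.25, adjusted p = 0.574, edgeR), nor was Ovol1 (-3.01, adjusted p = 0.0552, edgeR), and Trp63 was not analysed here.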

How the data were processed

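RNA sequencing libraries of Th17 cells from 2 PRAK KO mice and 2 WT mice were compared. The deposited table gives RSEM expected counts, not normalised (69.4% of them whole numbers), FPKM per gene length and library size as the authors made them, not used here, and TPM scaled by the authors to 1 sum per library, per the file headers. GRCm38.p6, HISAT2 2.0.4, Bowtie2 2.2.5 and RSEM 1.2.12 appear in the submitters' processing notes with no roles, and the labels name a BGISEQ platform. For the library kit, strand setting and annotation release, the sources used here give nothing. Totals were 19418012 to 20125124 per library, and depth and the number of mice both limit precision.

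Expected counts were rounded, filtered with filterByExpr (minimum count 10, minimum total 15), scaled with TMM factors and fitted over 12680 genes in edgeR 4.0.16 (R 4.3.3, limma 3.58.1) by the robust quasi-likelihood test, with genotype as the only term and Benjamini-Hochberg adjustment. All 7 genes passed the filter, which they did through their KO counts. Other genes very low in WT, such as Havcr1, Adgre1 and Clec4n, did so too and could hardly be called lower. The fit was tested on simulated data with the same spread in both genotypes. The KO libraries here differed from each other more than the WT libraries did, which that simulation does not cover. Alternatives were library size alone, DESeq2 size factors, no filter, the DESeq2 1.42.0 Wald test, the mouse number as a block, and each library left out; with 1 library left in a genotype, it is assumed to vary like the other genotype's. Symbols turned into dates (23) were restored by gene ID, 17787 genes were placed by gene ID on RefSeq GRCm38.p6, and promoters came from RefSeq.

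The genes and all lists were chosen with earlier results of these data known. The text names the 7 genes, Mapkapk5, the nearest gene on each side and called genes within 5, called relatives, fixed paralogs, the leading markers of the lists, the 2 genes of most like pattern and the highest 13 by fold change. Further list members were named after their values were seen, and 2 genes that this rule or the lists hold are not reported here.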

Additional observations from a re-analysis of the deposited data

How the results depend on the processing

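All 7 genes were higher in both KO libraries under every scaling tried. With 1 library left out the ratio of KO to WT means ranged from 89.8 to 328.7 for Lad1, 10.4 to 102.6 for Robo3, 19.3 to 50.6 for Ak1, 40.1 to 56.6 for Timd2, 16.9 to 39.9 for Sulf2, 12.3 to 33.0 for Zfp750 and 20.3 to 82.8 for Cxcl3. Leaving out 1 library gave 209 to 2881 genes called higher (652 with all) and 450 to 3118 called lower (1043 with all), among neighbours 2 to 15 higher and 1 to 11 lower, and among relatives 2 to 14 higher and 6 to 18 lower. With the DESeq2 test 988 genes were called higher, 4 neighbours lower and 9 relatives higher. Scaling by library size alone gave 918 genes higher and 864 lower with a median over all genes of 0.12 in place of 0.02 on the log2 scale, and turned the log2 fold change of Ak3 to 0.01 and of Tbcd to 0.05. With 1 library left out Tbcd lay between -0.22 and 0.09, B3gntl1 between -0.37 and 0.09 and St6galnac6 between -0.02 and 0.29. The mouse numbers are not said to pair the mice, and the differences between mice 1 and 2 in KO and in WT correlated at 0.175 across genes. With the mouse number as a replicate block 1338 genes were called higher and 1597 lower, 5 neighbours lower and 11 relatives higher, Cxcl2, Havcr2 and Ncoa3 among those gained. The causes of these shifts were not tested. WT levels of the 7 genes rest on 2 to 24.29 counts per library, so counting error is largest there.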
